A study of Mus musculus with 13 samples.

Results

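Epidermal growth factor (EGF) family ligands and ERBB receptors were followed through 8 genes in 13 RNA-seq libraries of mouse visceral fat and E0771 tumours. The members were taken by gene symbol: the ligand genes Ereg, Areg, Hbegf, Tgfa and Btc, the receptor genes Egfr and Erbb2, and Adam17, which encodes a ligand-releasing protease. All 8 were found among the 22609 gene rows of the fat table and among the 22609 rows of the tumour table. The fat came from mice of the C57BL/6 strain kept on HFD (high-fat diet), with 4 libraries from mice with the label of a fat-specific PD-L1 knockout (KO) and 3 from wild-type mice (WT). The tumours grew from transplanted E0771 cells, a mouse mammary cancer line, in hosts of the same strain, with 3 libraries from KO hosts and 3 from WT hosts. The labels state neither the promoter that drives the deletion nor the sex or age of the animals, and since they do not tie each replicate to its own animal, a p-value here reflects library-to-library spread that may be technical. WT fat libraries carry the numbers of their columns, 1, 3 and 4.

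ERBB receptors are tyrosine kinases of the cell surface that pair when a ligand binds and then signal through RAS, ERK and PI3 kinase. The ligands are made as membrane-anchored precursors that proteases such as ADAM17 cut loose, so a ligand's RNA level is separate from the amount released. EGFR binds all 5 ligands studied here, ERBB2 has no known ligand of its own and acts as the partner of the other receptors, and ERBB4 binds epiregulin, betacellulin and heparin-binding EGF as well as the neuregulins.

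The fat libraries held 29362788 to 41534662 gene reads and the tumour libraries 22834259 to 34706555. Cd274, the gene of PD-L1, showed no loss in KO fat, with 547.5, 521.1, 563.8 and 543.2 normalised reads there and 504.1, 738.6 and 527.9 in WT fat. KO therefore means labelled KO throughout. Of 14455 fat genes tested with limma on log2(value + 1), 34.2% passed an adjusted p of 0.05, with 16.8% higher and 17.4% lower in KO fat. Markers of whole cell types differed between the fat groups. The 8 adipocyte genes all fell (summed normalised reads 264610 to 413690 in KO fat, 833260 to 844890 in WT fat), and 9 of 10 macrophage genes rose (269690 to 376250 in KO fat, 51856 to 144630 in WT fat). In bulk tissue, fewer cells of a type and less RNA per cell cannot be told apart. The 8 genes were chosen with earlier results of these tables in view, so their KO and WT levels in fat are a description. No p-value is given for them there, and where a member is said to pass or miss the threshold used for all genes, nothing is read from it.

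The ligand genes Ereg, Areg and Btc lie side by side on chromosome 5 of GRCm38 with Epgn, the gene of the ligand epigen, in the order Epgn (91027464 to 91035215), Ereg (91074622 to 91093646), Areg (91139599 to 91148432) and Btc (91357261 to 91402994), a span of 375.5 kb. Btc is on the minus strand and the others are on the plus strand. The RefSeq promoter windows of Areg, Btc and Epgn, 250 bases before to 50 after the start, are shown because these neighbours did not all have like levels. Areg and Epgn had overlapping ranges in KO fat, at 5.52 to 8.06 and 5.39 to 11.8 normalised reads. Capitals mark matches on either strand. The TATA box, near which transcription often starts, was searched for as TATAAA. The site of the transcription factor AP-1 was searched for as TGANTCA. For the cAMP response element the letters were TGACGTCA. The GC box, bound by factors of the SP family, was searched for as GGGCGG.
Areg promoter, chr5:91139349-91139648, plus strand: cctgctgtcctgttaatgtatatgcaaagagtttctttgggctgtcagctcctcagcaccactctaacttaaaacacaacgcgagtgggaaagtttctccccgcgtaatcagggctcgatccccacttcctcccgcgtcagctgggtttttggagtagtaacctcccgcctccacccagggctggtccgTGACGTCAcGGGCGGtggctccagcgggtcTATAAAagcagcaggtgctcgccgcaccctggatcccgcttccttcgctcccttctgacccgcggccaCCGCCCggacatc
Btc promoter, chr5:91402945-91403244, minus strand: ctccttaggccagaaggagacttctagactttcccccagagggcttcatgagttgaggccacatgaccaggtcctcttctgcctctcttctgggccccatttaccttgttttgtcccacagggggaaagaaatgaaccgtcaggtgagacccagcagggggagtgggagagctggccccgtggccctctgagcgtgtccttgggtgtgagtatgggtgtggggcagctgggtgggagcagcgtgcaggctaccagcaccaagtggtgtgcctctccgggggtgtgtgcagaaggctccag
Epgn promoter, chr5:91027267-91027566, plus strand: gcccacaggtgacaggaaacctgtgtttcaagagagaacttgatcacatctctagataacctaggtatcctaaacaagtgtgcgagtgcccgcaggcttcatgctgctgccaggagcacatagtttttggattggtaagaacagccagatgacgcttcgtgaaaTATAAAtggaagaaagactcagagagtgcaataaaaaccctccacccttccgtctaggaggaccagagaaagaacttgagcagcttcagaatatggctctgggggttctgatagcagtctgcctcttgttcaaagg
The Areg window held the cAMP response element at -61, the GC box at -52 and, on the other strand, at 37, and the TATA box at -31, where negative positions count bases before the RefSeq start. The Epgn window held the TATA box at -86, and none of the 4 motifs was found in the Btc window. Of 32851 mouse promoter windows of the same length, 13.6% held the TATA box, 7.81% the AP-1 site, 1.79% the cAMP response element and 35.7% the GC box. These matches describe the letters only.

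Ereg, which encodes epiregulin, was the member that differed most between the fat groups. Its normalised reads were 78.4, 171.5, 49.0 and 57.4 in KO fat and 13.8, 1.96 and 1.03 in WT fat. Every KO library lay above every WT library, and KO library 2 stood above the other KO libraries. The WT values rested on 16, 2 and 1 reads and spread over more than the KO values, with log2 SDs of 0.79 in KO fat and 1.52 in WT fat. The log2 fold change (KO minus WT) came to 4.16 (SE 0.72) and to 5.02 without WT library 1, the WT library with most Ereg reads. Summed over libraries, 341 Ereg reads in KO fat stood against 19 in WT fat, a ratio per library depth of 14.4 with an exact 95% counting interval of 9.09 to 24.2, which covers counting error only. An antisense gene, Gm19610, overlaps an Ereg exon, and the sources used here do not say whether strand was used in counting.

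Areg encodes amphiregulin. It stood at 5.52, 6.47, 6.36 and 8.06 normalised reads in KO fat and at 0, 0.98 and 1.03 in WT fat. The groups did not overlap, but no library held more than 8 Areg reads, and the gene was below the filter for testing. Its pooled counts of 26 reads in KO fat and 2 in WT fat gave a ratio of 10.4 with a counting interval of 2.61 to 90.8.

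Btc, the gene of betacellulin, went the other way from Ereg and Areg. It had 167.8, 169.4, 198.8 and 227.8 normalised reads in KO fat and 271.0, 425.5 and 680.5 in WT fat, so all KO libraries were below all WT libraries and WT library 4 was the highest. The log2 fold change was -1.17 (SE 0.29), and -0.84 without WT library 4. Tgfa encodes transforming growth factor alpha, and its exons overlap the unclassified gene Gm43917 on the other strand. It had 58.5, 36.7, 86.3 and 66.5 normalised reads in KO fat and 82.6, 103.7 and 168.1 in WT fat. KO library 3 lay above WT library 1, and the log2 fold change of -0.92 (SE 0.35) did not pass the threshold. Without WT library 1 it was -1.14 and passed. Hbegf, the gene of heparin-binding EGF-like growth factor, had 173.3, 155.3, 130.7 and 114.9 normalised reads in KO fat and 150.6, 104.7 and 66.0 in WT fat. These ranges overlapped, the log2 fold change of 0.48 (SE 0.29) did not pass, and it was 0.17 without WT library 4.

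The receptors differed from each other in fat. Egfr had 2995, 4874, 5873 and 4606 normalised reads in KO fat and 5184, 3671 and 4674 in WT fat. Its lowest and highest values were both KO libraries, and the fold of the group means on the log scale had a 95% interval of 0.696 to 1.43. Erbb2 had 243.9, 239.5, 335.0 and 338.6 normalised reads in KO fat and 425.8, 547.8 and 598.0 in WT fat, with no overlap and a log2 fold change of -0.86 (SE 0.19). An exon of Erbb2 shares bases with the gene Mien1 on the other strand, which did not pass the threshold in fat (log2 fold change -0.33, SE 0.17).

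Adam17, the main protease for release of amphiregulin, epiregulin, TGF-alpha and HB-EGF, had 5577, 5823, 5172 and 5985 normalised reads in KO fat and 4044, 2986 and 2147 in WT fat. All KO libraries were above all WT libraries and close to each other, with a log2 SD of 0.09 in KO fat against 0.46 in WT fat. The log2 fold change was 0.93 (SE 0.20). Its gene overlaps Iah1 on the other strand, which fell in KO fat (log2 fold change -0.90, SE 0.20, limma adjusted p = 0.0108).

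Among the 8 members, 7 were tested in fat, and Ereg and Adam17 rose while Btc and Erbb2 fell. That is 2 higher and 2 lower beside the 16.8% and 17.4% of all tested genes. The same 4 had ranges that did not overlap, beside 43.7% of all tested genes, and nothing is read from these counts since the members were chosen on this contrast. The median log2 fold change was -0.002 over the 7 members and -0.0005 over all tested genes.

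**Figure D1:**
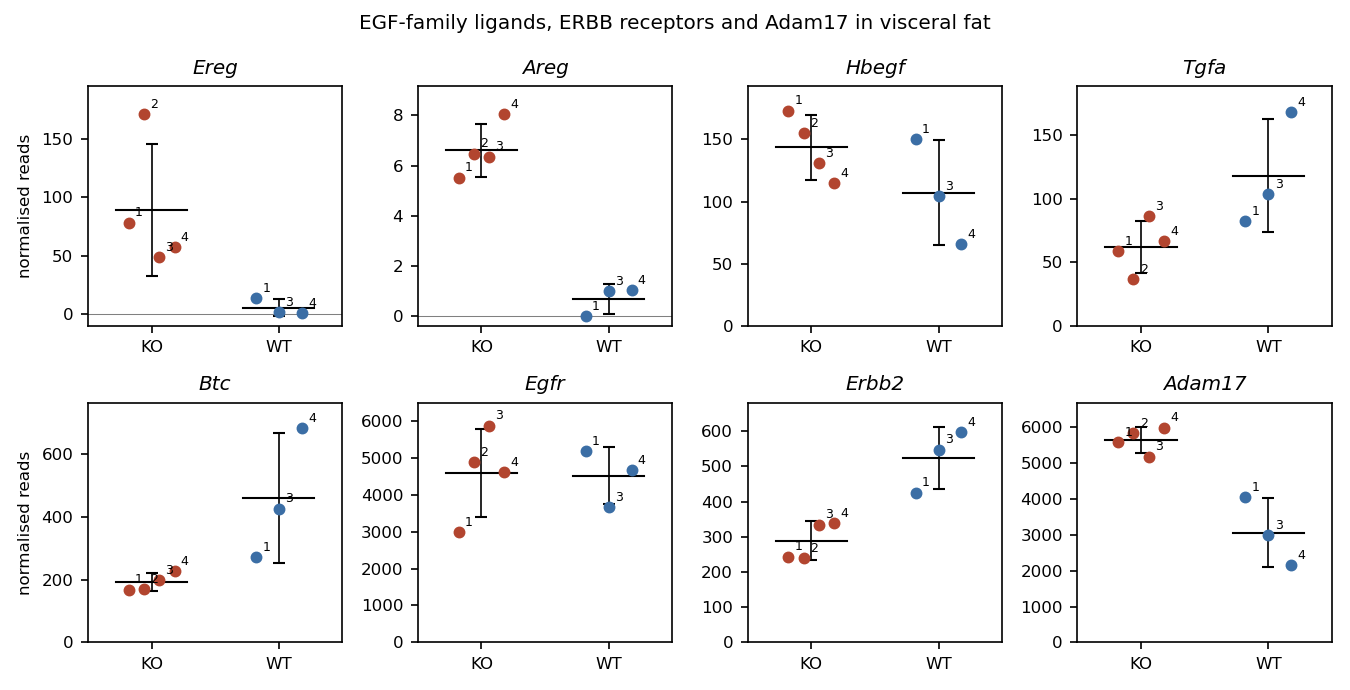
Normalised reads (y axis, linear) of the 8 members in each fat library, KO left and WT right, with the library number beside each point and the mean ± SD as lines (n = 4 KO, n = 3 WT). Ereg, Areg and Adam17 have all KO points above all WT points, Btc and Erbb2 have all KO points below, and Hbegf, Tgfa and Egfr overlap.

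To compare genes within a library, normalised reads were divided by the exon length of each gene (GENCODE M21). Per kilobase, the 5 ligands summed to 105.5, 122.1, 101.4 and 105.0 normalised reads in KO fat and 107.2, 133.1 and 191.2 in WT fat. The sums of WT libraries 1 and 3 were near those of KO fat, while WT library 4 was higher. Their make-up differed more than their sum. Btc held 35.2%, 30.7%, 43.4% and 48.0% of the ligand sum in KO fat and 55.9%, 70.8% and 78.7% in WT fat. Ereg held 17.99%, 34.0%, 11.7% and 13.3% in KO fat and 3.11%, 0.36% and 0.13% in WT fat. KO library 2 was the only fat library in which Ereg had the largest ligand share. The share of Hbegf was 22.6% to 34.0% in KO fat and 7.14% to 29.1% in WT fat, and that of Tgfa was 4.63% to 13.1% in KO fat and 11.9% to 13.5% in WT fat. By mean level per kilobase, the order of the ligands was Btc, Hbegf, Ereg, Tgfa and Areg in KO fat, where the range of Ereg overlapped those of Btc, Hbegf and Tgfa and the range of Tgfa overlapped that of Areg. In WT fat the order was Btc, Hbegf, Tgfa, Ereg and Areg, with overlapping ranges of Hbegf and Tgfa and of Ereg and Areg. Egfr made up 87.6% ± 2.47 (SD, n = 4) of the Egfr and Erbb2 sum per kilobase in KO fat and 79.5% ± 4.80 (SD, n = 3) in WT fat.

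**Figure D2:**
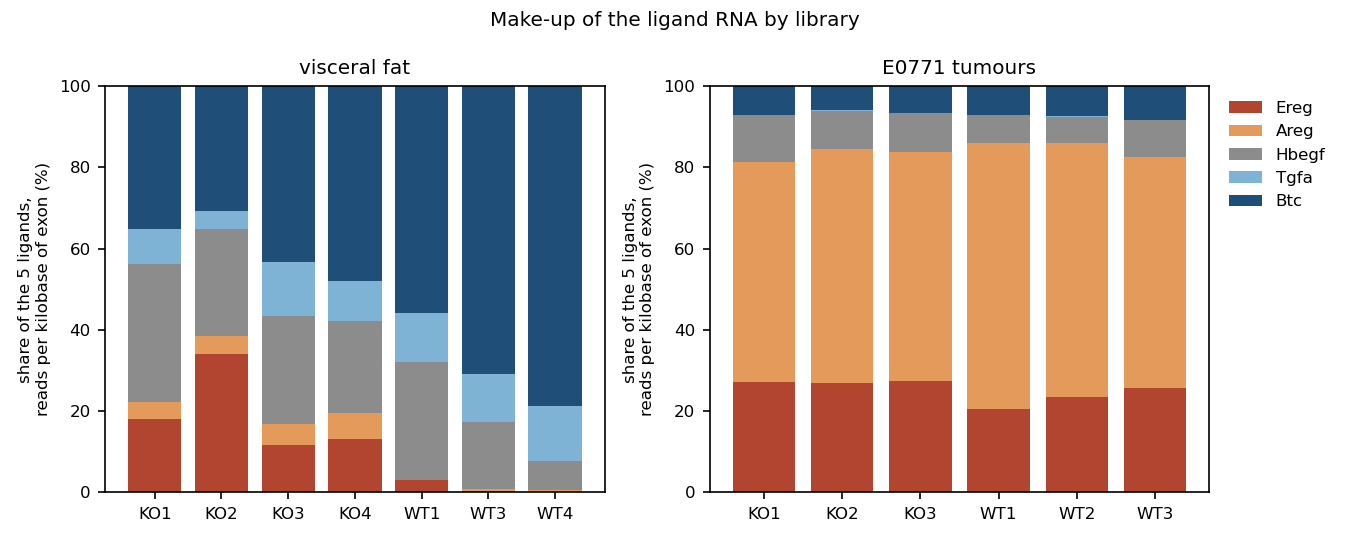
Share of each ligand gene (y axis, percent of the 5-ligand sum of normalised reads per kilobase of exon) in each library, stacked, with KO libraries left of WT libraries in each tissue. Btc fills 30.7% to 48.0% of the bar in KO fat and 55.9% to 78.7% in WT fat, and Areg fills 54.3% to 57.6% in tumours of KO hosts and 56.9% to 65.5% in tumours of WT hosts.

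Of the 6 other EGF-family ligand genes, 3 were tested in fat and 1 fell, beside 17.4% of all tested genes. With so few genes, nothing is read from this count. The gene that fell was Nrg4, which encodes neuregulin 4, a ligand of ERBB4 made by fat cells. It had 402.9, 244.9, 664.6 and 493.8 normalised reads in KO fat and 1038, 1794 and 2526 in WT fat (log2 fold change -1.98, SE 0.38, limma adjusted p = 0.0054). KO library 2, with the most Ereg, had the least Nrg4, and WT library 4, with the least Ereg, had the most. Epgn stayed between 3.91 and 11.8 normalised reads in all fat libraries and was not tested. Of the other receptors, Erbb3 averaged 68.7 ± 10.2 normalised reads in KO fat and 70.6 ± 32.0 in WT fat and did not pass, and Erbb4 was at 0 in every KO fat library and reached 10.3 in WT fat, on 11 reads in all.

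Of 11 genes of ligand release, 3 rose and 2 fell in fat, shares near the 16.8% and 17.4% of all tested genes. Without WT library 3, 3 rose and 0 fell. Calls over all genes also dropped without it, from 2430 to 1575 higher and from 2517 to 1490 lower. Adam8, a metalloprotease of leukocytes, had 29965, 41174, 21929 and 29440 normalised reads in KO fat and 7863, 1772 and 1246 in WT fat (log2 fold change 3.53, SE 0.56, limma adjusted p = 0.0027). Both its highest KO and its highest WT library were also those of Ereg. Adam19, another membrane protease, rose by 1.19 on the log2 scale (SE 0.22), and Frmd8, whose product keeps the iRhom and ADAM17 complex at the cell surface, by 0.78 (SE 0.18). Timp3, which encodes an inhibitor of ADAM17, fell by 1.15 on the log2 scale (SE 0.27, adjusted p = 0.0127), with 7802 to 14034 normalised reads in KO fat and 18280 to 29342 in WT fat. Rhbdf1, the gene of an iRhom that carries ADAM17 to the surface, fell by 0.56 on that scale.

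Of 24 signal relay genes, 5 rose and 5 fell, again near the 16.8% and 17.4% of all tested genes. Without WT library 3, 2 rose and 4 fell. Grb2, the adaptor that links receptors to RAS, averaged 4661 ± 680 in KO fat and 2416 ± 536 in WT fat (log2 fold change 0.96, adjusted p = 0.00488). Eps8, a receptor substrate that acts on actin, rose by 0.91, while Ptpn11, the phosphatase SHP2, fell by 0.88 and Plcg1, phospholipase C gamma, fell by 0.87 on the log2 scale. Of 14 inhibitors of the receptors, 3 rose and 2 fell, also near those shares, and 1 rose and 2 fell without WT library 3. Lrig1, whose product promotes receptor degradation, had 1026, 921.3, 1166 and 971.5 normalised reads in KO fat and 2027, 2080 and 2670 in WT fat, and it fell by 1.14 on the log2 scale (SE 0.14, adjusted p = 0.00126). Its relative Lrig3 also fell by 1.14 (SE 0.33), with 223.0 to 281.6 normalised reads in KO fat and 360.0 to 1064 in WT fat. Spred1, an inhibitor of RAS signalling, rose by 1.16 (SE 0.23), and Errfi1, a direct inhibitor of EGFR, by 0.77 (SE 0.22). Leaving out a library took away the call of Errfi1 in 5 of 7 cases, with adjusted p up to 0.117, and that of Lrig3 without KO library 1, 2 or 4, with adjusted p up to 0.065.

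Genes known to be switched on by ERK had 7 of 13 members that rose and 1 that fell, and without WT library 3 the count was 3 that rose and 1 that fell. Fosl1, a subunit of the transcription factor AP-1, had 110.4, 142.4, 123.5 and 93.7 normalised reads in KO fat and 70.5, 19.6 and 10.3 in WT fat (log2 fold change 2.20, SE 0.55, adjusted p = 0.0165). Dusp5, a phosphatase that acts back on ERK, had 155.6, 206.1, 124.4 and 171.3 normalised reads in KO fat and 79.1, 44.0 and 21.7 in WT fat (log2 fold change 1.91, SE 0.40, adjusted p = 0.0082). WT library 1 was the highest WT library for both. Plaur, the urokinase receptor, rose by 1.35 (SE 0.31), and Etv5, Myc, Ccnd1 and Dusp6 also rose, by 0.60 to 1.11 on the log2 scale. Epha2, an ephrin receptor kinase, fell by 1.16 (SE 0.20). Without WT library 3, Fosl1, Myc, Ccnd1 and Dusp6 no longer passed (adjusted p = 0.0626, 0.0582, 0.0702 and 0.0569), and neither did Timp3 and Rhbdf1 (adjusted p = 0.0573 and 0.0687). Ccnd1 also missed the threshold without WT library 4 (adjusted p = 0.0705). Over the 6 pathway lists, 18 of 66 tested genes rose and 11 fell, with a median log2 fold change of 0.08, beside 16.8% and 17.4% of all tested genes and a median of 0.00. Without WT library 3, 9 pathway genes rose in place of 18, and 8 fell in place of 11. Over all genes, 1575 then rose in place of 2430 and 1490 fell in place of 2517.

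**Figure D3:**
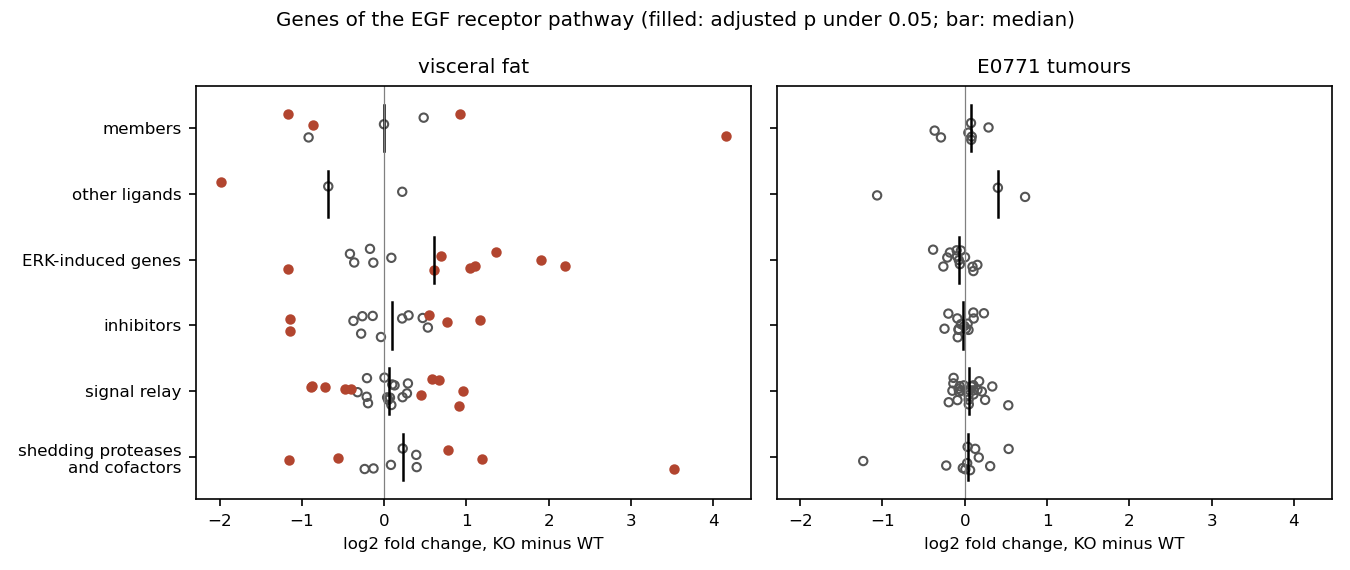
Log2 fold changes (x axis, KO minus WT, normalised reads) of members and of pathway genes by list, in fat and in tumours, with filled points for genes that passed the adjusted threshold, bars at the medians, and the other receptors (1 tested gene) not drawn. In fat the points reach from -1.98 for Nrg4 to 4.16 for Ereg, and no point passed in tumours.

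Marker sums of several cell types, like some of the members, differed between the fat groups. Within the groups, marker sums did not always follow the members. Beside the counts of markers that rose or fell stand 16.8% and 17.4% of all tested genes. A call of 1 gene in 5 or 6 is near those shares. Over the WT libraries, the macrophage sum (144630, 88106 and 51856 in libraries 1, 3 and 4) had the same order as Ereg, Adam17 and Adam8. In KO fat it did not have the order of Ereg: KO library 1 had the highest macrophage sum (376250), and KO library 2 (313510) had the most Ereg. The adipocyte sum was 343500, 264610, 413690 and 341840 in KO fat and 844890, 840880 and 833260 in WT fat, so the WT libraries were alike in it while their Btc and Nrg4 values spread. Within KO fat, library 2 had the lowest and library 3 the highest adipocyte sum, and the same held for Nrg4 and Tgfa. Btc was instead lowest in KO library 1 and highest in KO library 4. Mast cell genes, of which 5 of 7 rose, summed to 5149 to 19797 in KO fat and 1267 to 4069 in WT fat. Mesothelial genes, of which 4 of 6 fell, summed to 2613 to 4820 in KO fat and 4626 to 8696 in WT fat, and 9 epithelial genes, of which 5 were tested and 1 fell, to 202.6 to 375.4 in KO fat and 405.0 to 1027 in WT fat. Endothelial genes, of which all 6 fell, summed to 16712 to 29314 in KO fat and 39009 to 53122 in WT fat, and fibroblast and progenitor genes, of which 2 of 6 rose and 1 fell, to 155140 to 188790 in KO fat and 86138 to 113170 in WT fat. Neutrophil and type 2 lymphoid sums did not overlap and were higher in KO fat. In each of these lists 1 of 4 tested genes rose, and 1 type 2 lymphoid gene fell. Il1rl1 (means 1208 in KO fat and 565.3 in WT fat) made up most of the type 2 lymphoid sum. Sums of mesothelial genes, monocytes, lipid-associated macrophages, dendritic cells, T cells and B cells overlapped. Yet 5 of 7 lipid-associated macrophage genes rose, with a median log2 fold change of 3.13 over the list. Their sum was mostly Lpl (means 314590 in KO fat and 529400 in WT fat) and Cd36 (225530 and 200950), which did not pass. The 9 epididymis and testis genes summed to 12.1, 2.16, 3.63 and 4.03 in KO fat and 559.2, 227.0 and 1962 in WT fat. Adam7, an epididymal gene, made up 1918 of the sum in WT library 4, the library with the most Btc and Tgfa. Without Adam7 the sums were 11.0, 1.08, 3.63 and 2.02 in KO fat and 557.5, 227.0 and 44.3 in WT fat, so that WT library 4 was then the lowest WT library. Prm2, a sperm gene and the only one of the 9 that was tested, fell. Lcn5, Lcn8 and Lcn9 had 0 reads in KO fat and no more than 7 in WT fat, and Crisp1 had 10 reads in KO fat and 0 in WT fat. Without WT library 4, the log2 fold changes of Btc, Erbb2 and Adam17 were -0.84, -0.76 and 0.70. That fit kept most of the sperm gene RNA, with Prm2 at 282.2, 92.0 and 25.8 in WT libraries 1, 3 and 4. It is therefore no check on that RNA. The part of these cell types in the members' values was not tested.

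**Figure D4:**
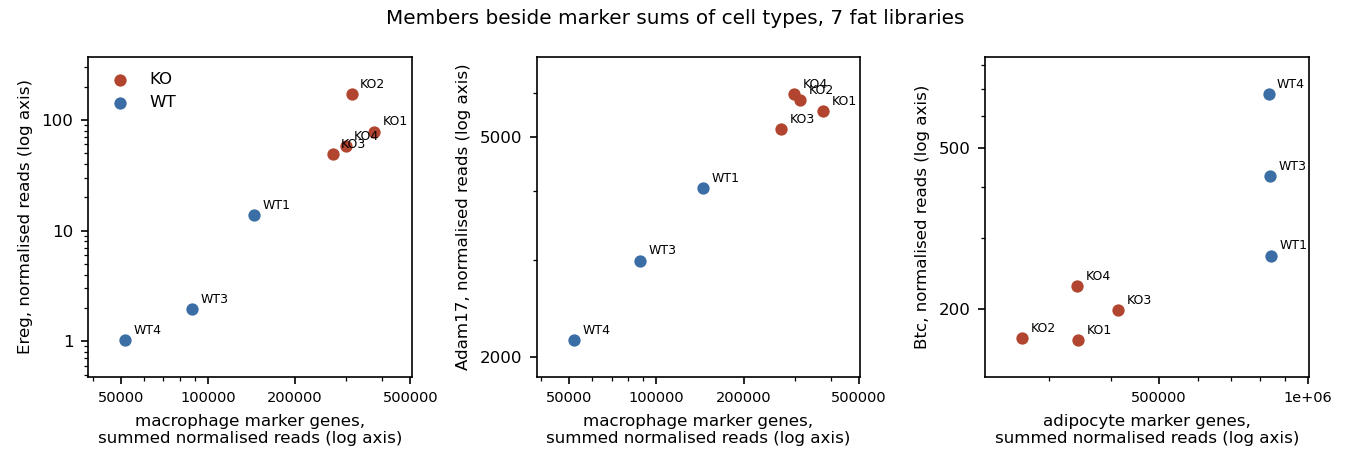
Normalised reads of Ereg, Adam17 and Btc (y axes, log) against summed markers of macrophages or adipocytes (x axes, log) in the 7 fat libraries, each point 1 library. KO points are apart from WT points in each panel. WT library 4 has the lowest macrophage sum (51856), and the adipocyte sums of WT fat lie close together (833260 to 844890).

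The genes whose levels across the 7 fat libraries were most like Ereg were Plcl2, Rab3il1, Snx9, Shc4 and Ptger4, with Pearson r of 0.996 to 0.997 on log2(value + 1). After each group's mean was taken out, r was still 0.982 to 0.987. The libraries share the split into KO and WT, and the 5 genes were the highest of all tested genes, so these values only describe likeness. Ptger4 encodes a receptor of prostaglandin E2 and had means of 1115 normalised reads in KO fat and 470.9 in WT fat. Among the members, r with Ereg was 0.96 for Adam17 and 0.79 for Hbegf, against -0.97 for Erbb2, -0.96 for Btc, -0.91 for Tgfa and 0.06 for Egfr.

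In the tumours, no member differed between hosts beyond the test's threshold. Of 13109 genes tested with edgeR's quasi-likelihood test, 0% passed an adjusted p of 0.05 and 6.9% had an unadjusted p under 0.05. Of the members, 7 were tested, 0 passed and 2 (Hbegf and Btc) had an unadjusted p under 0.05. DESeq2 also called none of the members, while it called 41 genes higher and 10 lower over the whole table. With 3 libraries in each group the exact permutation test over 20 relabellings cannot go below 0.1.

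Ereg was among the more abundant transcripts of the tumours, at percentile 84.4 to 87.5 of genes by level per kilobase in KO hosts, against 84.0 to 87.3 in WT hosts, where in fat it stood at 42.0 to 51.1 in KO and 24.8 to 35.6 in WT libraries. It had 2141, 2877 and 2582 normalised reads in tumours of KO hosts and 2166, 2797 and 2229 in tumours of WT hosts, and the groups overlapped almost wholly. Its log2 fold change of 0.08 (SE 0.15) had an edgeR adjusted p of 0.934 and a 95% interval of the fold of 0.844 to 1.32. Areg had 1263, 1813 and 1575 normalised reads in KO hosts, against 2030, 2193 and 1458 in WT hosts, with overlap (log2 fold change -0.29, SE 0.18, adjusted p = 0.796).

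Hbegf had 1069, 1185 and 1048 normalised reads in tumours of KO hosts and 850.1, 911.8 and 940.8 in tumours of WT hosts. KO hosts were above WT hosts in all libraries, and the log2 fold change was 0.29 (SE 0.13, adjusted p = 0.713, exact permutation p = 0.1). Btc had 611.3, 705.9 and 688.1 normalised reads in KO hosts, against 816.6, 979.6 and 787.4 in WT hosts. Here all KO hosts were below all WT hosts, and the log2 fold change was -0.37 (SE 0.14, adjusted p = 0.676, exact permutation p = 0.1). Ranges did not overlap for 2 of the 7 tested members, beside 10.6% of all tested genes. Tgfa was near the limit of detection with 2 to 5 reads in each tumour library and was not tested.

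No difference between hosts was detectable for the receptors and the protease. Egfr averaged 873.7 ± 185 normalised reads in KO hosts, against 830.1 ± 104 in WT hosts, with a 95% interval of the fold of 0.808 to 1.37. Erbb2 averaged 1206 ± 136 in KO hosts, against 1170 ± 68.7 in WT hosts, with an interval of 0.840 to 1.26. Adam17 averaged 6150 ± 168 in KO hosts, against 5799 ± 352 in WT hosts (SD, n = 3 each), with an interval of 0.901 to 1.25. The adjusted p of edgeR was 0.944, 0.959 and 0.901 for these 3 genes.

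**Figure D5:**
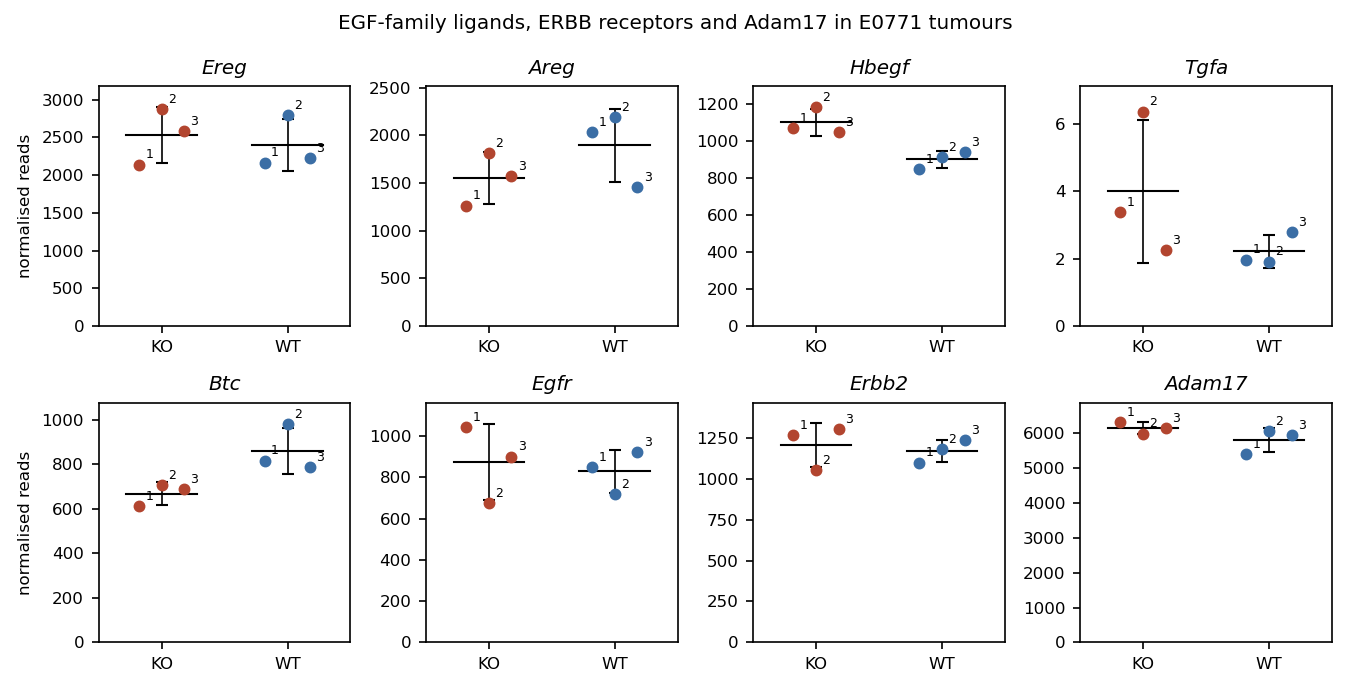
Normalised reads (y axis, linear from 0) of the 8 members in each tumour library, KO hosts left and WT hosts right, with the library number beside each point and the mean ± SD as lines (n = 3 each). Hbegf has all KO points above and Btc all KO points below the WT points, and the other 6 members overlap.

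The ligand make-up of the tumours was unlike that of fat. Fat and tumour tables were normalised apart, so only shares within a library and ranks are set side by side. Areg, the lowest of the 5 ligands in fat by group mean, held 56.15% ± 1.69 of the ligand sum per kilobase in tumours of KO hosts and 61.6% ± 4.36 in tumours of WT hosts. Ereg held 27.1% ± 0.20 in KO hosts, against 23.2% ± 2.53 in WT hosts, Hbegf 10.2% ± 1.204 in KO hosts, against 7.55% ± 1.47 in WT hosts, and Btc 6.58% ± 0.52 in KO hosts, against 7.61% ± 0.60 in WT hosts (SD, n = 3 each). Among the ligands the order by mean level per kilobase was Areg, Ereg, Hbegf, Btc and Tgfa in KO hosts, and their ranges did not overlap. In WT hosts the ranges of Hbegf and Btc overlapped and Btc had the higher mean. Receptor shares were the reverse of those in fat: Erbb2 made up 75.2% ± 2.38 of the Egfr and Erbb2 sum in KO hosts, against 75.4% ± 2.37 in WT hosts (SD, n = 3 each). By level per kilobase, Areg stood at percentile 92.1 to 94.9 of 20223 genes with a known length in KO hosts, against at 93.5 to 96.1 in WT hosts, and in fat at 37.8 to 38.7 in KO and 12.5 to 29.3 in WT libraries.

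None of the 66 pathway genes tested in the tumours passed with edgeR or with DESeq2, 2 had an unadjusted p under 0.05, and the median log2 fold change was 0.01. The genes of smallest p in their lists were Egf (log2 fold change -1.07, SE 0.59), Erbb3 (-0.18, SE 0.37), Adam8 (0.53, SE 0.19), Pik3r1 (0.53, SE 0.21), Lrig1 (-0.25, SE 0.12) and Dusp4 (-0.38, SE 0.18). Erbb4 and the ligand gene Nrg3 had no reads in any tumour library. Among tested members Areg varied most across tumours, and the genes most like it over the 6 libraries were Fam32a, H47, Slc35a1, Crls1 and Serf1, with Pearson r of 0.984 to 0.989 on log2-scaled counts per library size. Its r was 0.82 with Btc and 0.52 with Ereg and -0.80 with Egfr, again as descriptions of libraries that share a tumour line and the split by host. Sums of markers did not overlap for 5 cell types, and those of the other cell types overlapped. Among single genes, 10.6% of all tested had ranges that did not overlap. The sums were not tested, and nothing is read from their count. The mast cell sum was 3416 to 11852 in KO hosts, against 1171 to 2195 in WT hosts, the T cell sum 3758 to 7623 in KO hosts, against 3097 to 3724 in WT hosts, and the type 2 lymphoid sum 426.6 to 852.4 in KO hosts, against 236.8 to 376.5 in WT hosts. The B cell sum was lower with 179.6 to 262.5 in KO hosts, against 277.0 to 306.5 in WT hosts, and the dendritic cell sum with 769.8 to 919.9 in KO hosts, against 960.5 to 1157 in WT hosts. No gene of these lists passed the adjusted threshold, and their part in the members' values was not tested. The macrophage sum overlapped, with 70422 to 100580 in KO hosts, against 69454 to 79611 in WT hosts. Epithelial genes, a check of the mammary origin, were all tested and summed to 9000 to 9745 in KO hosts, against 8971 to 10675 in WT hosts.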

How the data were processed

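RNA was taken with Trizol and made into libraries with a stranded TruSeq mRNA kit, per the labels. For the tumours the authors deposited raw read counts per gene symbol. The authors' fat table holds a signal per gene, which is a read number over a size factor of its library. Of its 117220 values above 0, 117220 were whole multiples of a step (0.8603 to 1.104 per read), with a tolerance of 0.001 reads. CASAVA, TopHat, DESeq2 and the build mm10 were used, per the submitters' processing notes, and the counter, annotation, strand setting and versions are not given in the sources used here. Lines of the tumour table that name no gene (5, with 66.7% to 72.2% of all entries) were left out.

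The fat values were tested with limma 3.58.1 in R 4.3.3 (trended variance, log2 of value + 1), keeping the 14455 genes with 10 or more in at least 3 libraries. Adding 1 shrinks the change of low genes, yet Ereg came to 4.16 on this scale and to 3.92 with edgeR on recovered reads. Tumour counts were tested with edgeR 4.0.16 (TMM, filterByExpr, quasi-likelihood; 13109 genes), and normalised tumour reads are counts rescaled by TMM library size. Tests were two-sided, KO minus WT, with Benjamini-Hochberg adjustment over all genes tested and a threshold of 0.05. Standard errors (SE) are of log2 fold changes. Alternatives were DESeq2 1.42.0 and DESeq2 size factors, edgeR on recovered fat reads, a pseudocount of 5, no filter, a replicate block and leaving out each library. The steps were tested on simulated data.

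The members, lists and alternatives were chosen with earlier results of these data known. Named genes are all members, up to 4 genes per pathway list with the largest change among those past the threshold with a mean of 50 or more (where none passed, the gene of smallest p), and the 5 genes most like Ereg in fat and most like the most variable member in tumours. Others named (Rhbdf1, Etv5, Myc, Ccnd1, Dusp6, the neighbouring and overlapping genes) were chosen after their values were seen. Hras, Chil3 and Adgre1 were read under older symbols, as was Mien1. Promoters are from RefSeq on GRCm38.p6, matched for 6 members.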

Additional observations from a re-analysis of the deposited data

Results flagged for a closer look

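Among the named pathway genes of fat, 1 group had a library far from the others. Eps8 had 3985, 6307, 3958 and 4149 normalised reads in KO fat and 3016, 2550 and 1787 in WT fat. The gap between KO library 2 and the next KO library was 0.919 of the range of the KO group, above the critical value for 4 samples. Chance alone marks about 1 in 20 groups in this way. Groups of all the named pathway genes were looked at, so 1 mark among them is not unusual and nothing is read from it. KO library 2 was also the fat library with the most Ereg and Adam8.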

How the results depend on the processing

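In fat, log2 fold changes without any 1 library ran from 3.59 to 5.02 for Ereg, from 0.70 to 1.15 for Adam17 and from -1.002 to -0.757 for Erbb2, which describes the members and supports nothing, since they were chosen on this contrast. A pseudocount of 5 gave 3.18 for Ereg. Btc missed the threshold without WT library 3. Leaving out a library gave 1575 to 2691 genes higher and 1490 to 2567 lower, 1 to 3 members lower, and 9 to 19 pathway genes higher and 8 to 11 lower. A replicate block on column numbers 1, 3 and 4, which leaves out KO library 2, gave 1430 genes higher and 1475 lower. It gave 11 pathway genes higher and 6 lower. Leaving out KO library 2 with no block gave 1690 genes higher and 1775 lower, and 13 pathway genes higher and 8 lower. Same-numbered libraries showed little common deviation (r of -0.0116, 0.0607 and 0.247 in fat and -0.229, 0.0118 and -0.22 in tumours). These values give no sign of pairing, but with so few libraries they cannot exclude it. Among the named pathway genes, Errfi1, Lrig3, Rhbdf1, Ccnd1 and Dusp6 missed the threshold in the block fit (limma adjusted p = 0.0573 to 0.0964). Errfi1 and Lrig3 also missed it without KO library 2 and with no block (limma adjusted p = 0.0644 and 0.0568).

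Signs of values near 0 turned. With edgeR on recovered reads Egfr in fat was 0.029 and Erbb3 -0.034, and without any 1 library they ran from -0.14 to 0.19 and from -0.27 to 0.38. In tumours, leaving out a library gave -0.021 to 0.20 for Ereg, -0.079 to 0.23 for Egfr, -0.014 to 0.13 for Erbb2 and -0.50 to 0.065 for Erbb3. The number of tumour genes called was 21 higher and 1 lower with no filter, 41 higher and 10 lower with DESeq2, and 0 to 10 higher and 0 to 11 lower without any 1 library. The cause was not tested. Areg in fat and Tgfa in tumours, at 8 reads or fewer per library, are limited by depth.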

Other observations

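The chromosome 5 neighbourhood of Ereg and Areg also holds CXC chemokine genes. Cxcl2, a neutrophil attractant, averaged 100.5 normalised reads in KO fat and 41.6 in WT fat (log2 fold change 1.32, SE 0.43, limma adjusted p = 0.0449), and Pf4, platelet factor 4, averaged 2488 in KO fat and 1160 in WT fat (log2 fold change 1.08, SE 0.19, adjusted p = 0.00405). Cxcl1, Cxcl5 and Ppbp did not pass (log2 fold changes -0.22, 0.88 and -0.61, limma adjusted p = 0.675, 0.421 and 0.331). Beside Cxcl2 and Pf4, 16.8% of all tested genes were higher in KO fat. Mthfd2l and Parm1, which flank the ligand genes, did not pass either, with log2 fold changes of -0.28 (SE 0.19) and -0.08 (SE 0.38). In the tumours Cxcl2 and Pf4 had log2 fold changes of 0.84 (SE 0.70) and 0.45 (SE 0.21), with edgeR adjusted p of 0.851 and 0.731.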
